A study of Mus musculus with 5 samples.

Results

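WNT and R-spondin signalling was followed here through 10 genes in newborn mouse ovaries with and without the oocyte transcription factor gene Lhx8. The members were taken by gene symbol: the ligand genes Wnt4, Wnt5a, Wnt6, Wnt7a and Wnt9a, the R-spondin genes Rspo1 and Rspo3, the receptor gene Lgr5, and Axin2 and Lef1, which act inside the cell. Every probe set whose only gene symbol is one of these was kept, dim ones included, which gave 22 of the 45037 probe sets that are not controls. Oligonucleotide arrays measured RNA of ovaries taken at postnatal day 0.5, with 3 arrays from LHX8 Null females and 2 from C57/129 WT females, both on a C57/BL6/129SVEV hybrid background. Each array carried 1 pool of 50 ovaries from at least 25 animals, so a replicate is a pool. All alleles other than Lhx8 were given as the shared background, no treatment was given, and the part of Lhx8 that was removed is not given in the sources used here.

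WNT proteins are secreted lipid-modified ligands that bind Frizzled receptors with LRP co-receptors, which stabilises beta-catenin and lets it act in the nucleus with TCF and LEF factors. R-spondins bind LGR receptors and slow the removal of Frizzled receptors from the cell surface, so they strengthen a WNT signal. In the fetal ovary Wnt4 and Rspo1 are best known for directing the somatic cells towards the female fate, and both work at least partly through beta-catenin. AXIN2 is an inhibitory scaffold that the pathway itself induces, and LEF1 is a DNA-binding partner of beta-catenin. Transcripts of both genes are commonly read as measures of pathway output.

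The promoters of these output genes are shown because TCF and LEF factors bind a short, well-defined core. The lines give the 250 bases before a transcription start, 5′ to 3′ on the gene's strand, from RefSeq on build GRCm38.p6, for Axin2 (chr11:108920099-108920348, + strand), for the first annotated start of Lef1 (chr3:131110047-131110296, + strand), for a later start within Lef1 (chr3:131156044-131156293, + strand) and, as a reference from the list of reported WNT targets, for the transcription factor gene Sp5 (chr2:70474673-70474922, + strand). Capitals mark the core CTTTG when the next 2 letters are each A or T, or its reverse complement.
Axin2: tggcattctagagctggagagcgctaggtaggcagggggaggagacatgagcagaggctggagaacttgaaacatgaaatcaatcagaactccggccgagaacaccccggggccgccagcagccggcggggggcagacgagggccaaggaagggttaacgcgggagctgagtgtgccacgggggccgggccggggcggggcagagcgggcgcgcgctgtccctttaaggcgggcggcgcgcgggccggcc
Lef1, first start: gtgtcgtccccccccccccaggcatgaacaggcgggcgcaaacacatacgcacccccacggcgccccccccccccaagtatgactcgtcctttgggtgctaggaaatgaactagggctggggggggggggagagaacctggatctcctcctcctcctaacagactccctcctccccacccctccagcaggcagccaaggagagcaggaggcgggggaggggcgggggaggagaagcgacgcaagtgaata
Lef1, later start: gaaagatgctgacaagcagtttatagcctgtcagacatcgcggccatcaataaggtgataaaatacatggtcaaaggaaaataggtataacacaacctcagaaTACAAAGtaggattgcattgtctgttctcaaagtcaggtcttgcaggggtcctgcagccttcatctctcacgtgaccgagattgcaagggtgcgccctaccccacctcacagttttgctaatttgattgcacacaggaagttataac
Sp5: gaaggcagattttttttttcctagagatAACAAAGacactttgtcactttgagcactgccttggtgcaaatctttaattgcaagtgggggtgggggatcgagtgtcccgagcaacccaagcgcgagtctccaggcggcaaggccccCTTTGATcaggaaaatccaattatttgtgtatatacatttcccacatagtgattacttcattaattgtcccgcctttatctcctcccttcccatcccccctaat
These letters occurred in 14.8% of all 32851 RefSeq windows of 250 bases. A window was found for 7 of the 10 members, and Lef1 had several. Among the 10 member windows 1 held a match, the later start of Lef1, where it began 147 bases before the start. Sp5 had a match at 222 and another at 104 bases before its start. A match is only a description of the letters, and the window of Axin2 without one says nothing of sites elsewhere.

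Lhx8 itself had signals of 332.6, 159 and 347.4 on null arrays 1, 2 and 3, against 6450.1 and 5223.1 on wild type arrays 2 and 3, so the arrays followed their labels. The groups also differed in the signals of cell type markers. Of 6 germ cell markers (Ddx4, Dazl, Sycp3, Figla, Nobox, Kit) all 6 fell, with a summed signal of 6149 to 8891 on null and 42551 to 45234 on wild type arrays. Of 6 pregranulosa markers 5 fell, all but the dim Fshr (summed signal 14451 to 16438 against 24081 to 26157). All 6 surface mesothelium markers rose (20323 to 22739 against 5415 to 5698). So did 4 of 5 oviduct and mesonephric epithelium markers, all but the dim ciliated cell gene Foxj1 (8987 to 11217 against 434 to 479), and all 6 markers of genital tract mesenchyme and smooth muscle (13295 to 15930 against 2075 to 2133). No marker was at 0 on all arrays. In RNA of whole ovaries, the number of cells of a type and their RNA per cell cannot be told apart. Nor can tract tissue taken along with the ovaries be told apart from a change within them. The part of these shifts in the results below was not tested. On each array the deposited signals had a 2% trimmed mean of 500. After quantile normalisation the arrays correlated at 0.960 to 0.974 within the null group, 0.970 within the wild type group and 0.905 to 0.931 between them. BioC and Cre hybridisation controls were 2.17 and 1.83 times as bright on null arrays, with no overlap. The 3′ to 5′ ratio of Actb was 1.48 to 1.69 on null and 1.39 to 1.43 on wild type arrays.

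**Figure D1:**
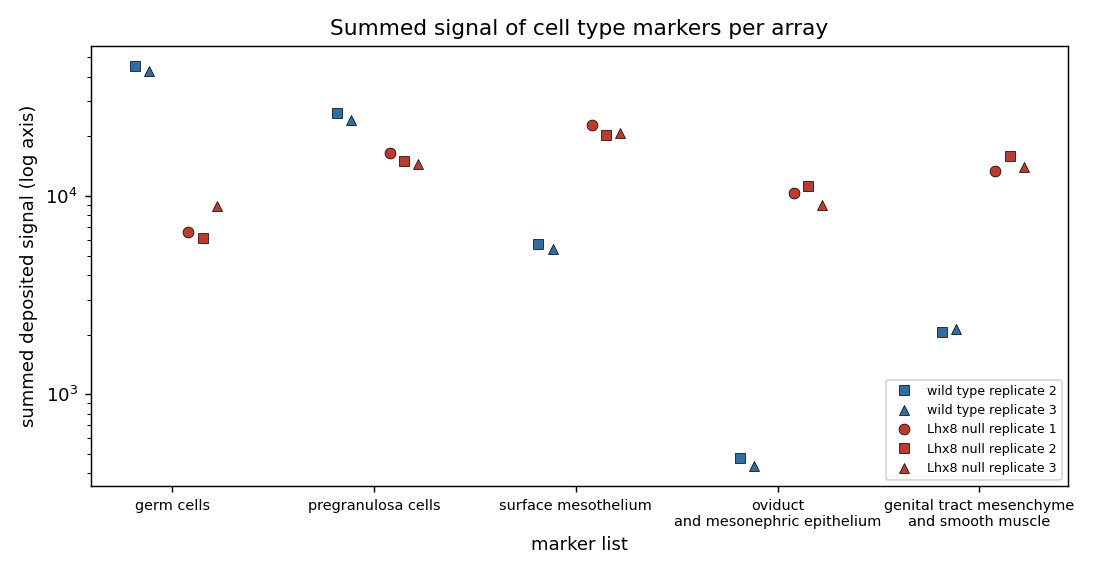
Summed deposited signal (log axis) of each cell type marker list on each array, with wild type in blue and Lhx8 null in red and the marker shape giving the replicate. Germ cell and pregranulosa sums lay lower on every null array, and the sums of the other 3 lists lay higher.

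Among the members, Rspo3, Wnt7a, Wnt5a and Lgr5 rose in Lhx8 null ovaries, Wnt6 fell, and Wnt4, Rspo1, Wnt9a and Lef1 did not pass at any probe set. Axin2 fell at its dimmer probe set and did not pass at the brighter one. Differences are null minus wild type on normalised log2(signal + 16), tested with limma and called at a Benjamini-Hochberg adjusted p below 0.05 over all 45037 probe sets. By that rule 6 member probe sets were higher and 3 lower, and 13 of 22 did not pass. The lower calls numbered 0 when null replicate 2, null replicate 3 or wild type replicate 2 was left out, where limma gave 3, 4 and 2 lower probe sets an unadjusted p under 0.05. Over all probe sets 21.0% were called, 10.7% higher and 10.3% lower. Groups were free of overlap at 12 member probe sets (all null arrays above at 7 and below at 5), beside 49.5% of all probe sets (24.5% above and 25.0% below). The median difference was 0.00 over the 22 and 0.00 over all. Taking the brightest probe set of each gene, 4 members of 10 were called higher and 1 lower, beside 27.5% called over all 18193 genes, dim ones included. At that probe set 7 members were free of overlap (5 above and 2 below), beside 55.7% of all genes (27.2% above and 28.5% below). The median was 0.40 for the members and -0.02 for all genes. Dim here means a mean level below 7.37, a signal of about 150, under which the lowest 40% of genes lie. Of the 22 probe sets 8 were dim, and 1 of these, for Axin2, was called. The brightest probe sets of the 10 members were all not dim, so the share over all genes is not a like comparison. In the fit with dim genes left out, 2784 of 10916 genes were higher and 2432 lower, beside 4 and 2 of the 10 members. Each array was scaled against the others, and the share of higher calls over all probe sets was 50.8% after quantile normalisation, 56.7% with the deposited scaling and 35.0% with arrays centred on their medians. That centring moved the median difference of all probe sets from 0.00 to -0.13 and the deposited scaling moved it to 0.11.

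**Figure D2:**
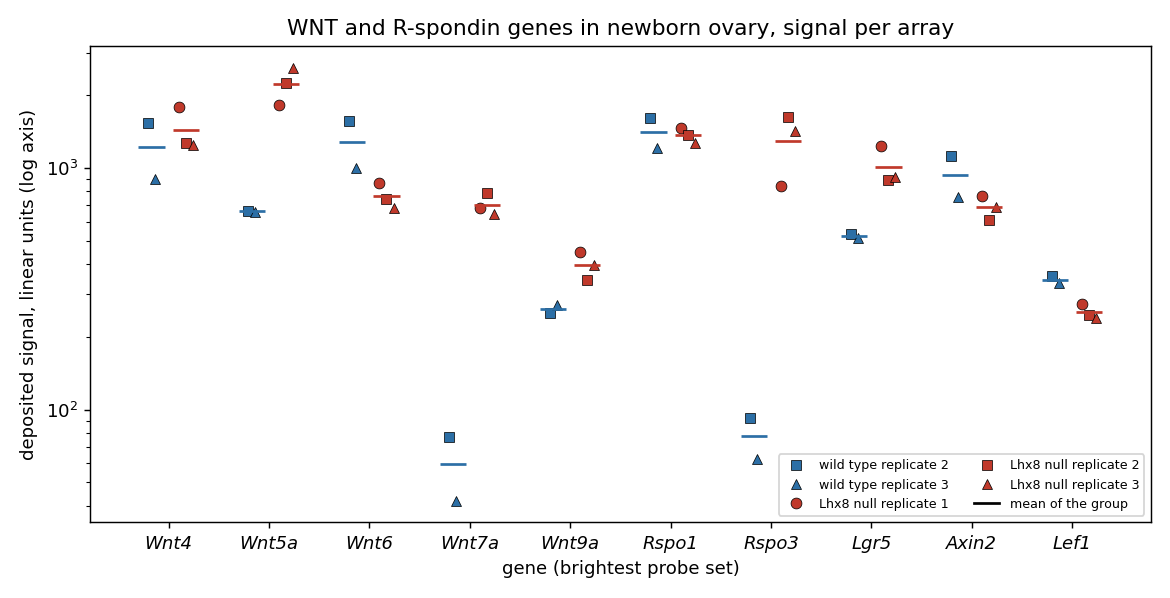
Deposited signal (log axis) of the brightest probe set of each member on each array, with wild type in blue, Lhx8 null in red, a shape per replicate and a bar at the group mean. Signals of Wnt7a and Rspo3 were below 100 on both wild type arrays and above 600 on all null arrays, while those of Wnt4 and Rspo1 overlapped. Signals can be compared between arrays for a gene, not between genes.

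Rspo3, which encodes a secreted R-spondin, had the largest difference of the members. Its signals (1455607_at) were 841.9, 1620.8 and 1419.8 on null arrays 1, 2 and 3, against 92.6 and 62.5 on wild type arrays 2 and 3. Every null array lay far above both wild type arrays, and null replicate 1 was the lowest of its group. Mean signals were 1294 ± 404 (SD, n = 3) in null and 77.5 ± 21.3 (SD, n = 2) in wild type ovaries. The normalised level rose by 3.65 log2 units (SE 0.30, adjusted p = 0.000180), or 12.5-fold. Since the wild type signal was dim, the size depends on the constant added before the log, with 3.86 for 1 and 3.14 for 64. The other probe set of Rspo3 (1443187_at) was dim on all arrays, between 2.1 and 41.2, and had -0.38 (95% interval -1.52 to 0.76).

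Rspo1, the R-spondin gene of ovarian somatic cells, showed no such change. Its only probe set (1449319_at) had signals of 1466.3, 1369.5 and 1267.7 on null arrays, against 1607.3 and 1212.5 in wild type. All null values lay between those of the wild type arrays. The difference was 0.03 (SE 0.15, adjusted p = 0.922), with a 95% interval from -0.32 to 0.37, so a change of the size seen at Rspo3 lies outside it. With arrays centred on their medians it stood at -0.28 and with the deposited scaling at -0.03.

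Lgr5, a receptor of R-spondins found on ovarian surface cells and some pregranulosa cells, rose. Its bright probe set (1450988_at) had signals of 1229.1, 889.7 and 922.2 on null arrays, against 532.9 and 511.5 in wild type. The wild type values lay close together and below all null values. The level rose by 0.93 (SE 0.17, adjusted p = 0.00657), or 1.90-fold. It no longer passed when either wild type array was left out, at 0.93 (adjusted p = 0.0563) without replicate 2 and 0.91 (adjusted p = 0.0641) without replicate 3. The second probe set (1444519_at) was dim, from 28.8 to 63.4, at -0.03 (95% interval -0.93 to 0.86).

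Of the 5 WNT ligand genes, Wnt7a had the largest difference. Wnt7a encodes a ligand of the female tract epithelium, and its brightest probe set (1423367_at) had signals of 683.9, 788 and 647.3 on null arrays against 77.1 and 42 on wild type arrays. The groups stood well apart and the null arrays were alike. Means were 706 ± 73.0 (SD, n = 3) and 59.5 ± 24.8 (SD, n = 2), a rise of 3.16 (SE 0.26, adjusted p = 0.000180) or 8.91-fold, with 3.43 for an added constant of 1 and 2.57 for 64. The other probe sets of Wnt7a did not follow. One (1447647_at) lay between 81.4 and 151.1 on all arrays (-0.17, 95% interval -1.04 to 0.70). The other (1458334_at) lay between 1.6 and 65.9 (-0.54, 95% interval -1.96 to 0.88). It passed in the opposite direction without null replicate 1 (-1.17, adjusted p = 0.0485), at signals of 2.7 and 1.6 on the remaining null arrays. The summed signal of oviduct and mesonephric epithelium markers was 22.3 times as high in the null group. That of genital tract mesenchyme and smooth muscle was 6.85 times as high and that of surface mesothelium 3.83 times, while germ cell and pregranulosa sums fell. The part of any of these in the rise of Wnt7a was not tested.

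Wnt5a, a ligand best known for signalling without beta-catenin in mesenchyme, rose at 3 of its 4 probe sets. The brightest (1436791_at) had 1819.6, 2247.4 and 2606.4 on null arrays, against 663.2 and 660.5 in wild type. Every null signal exceeded both wild type signals, which were nearly equal. The rise was 1.73 (SE 0.16, adjusted p = 0.000283), or 3.32-fold, and the others gave 2.02 (1437673_at, SE 0.18, adjusted p = 0.000275) and 1.46 (1448818_at, SE 0.18, adjusted p = 0.000957). The remaining, dim probe set (1456976_at) had the same sign but overlapping arrays, at 0.66 (95% interval -0.37 to 1.69). Each of the 3 called probe sets of Wnt5a, and the brightest of Wnt7a and Rspo3, passed under every alternative tried that included it.

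Wnt6, another epithelial ligand gene, was lower in null ovaries by a small margin. At its brightest probe set (1419708_at) the signals were 867.4, 745.6 and 681.3 on null arrays, against 1563.5 and 1005.4 in wild type. The groups did not overlap, but the wild type arrays were farther from each other than wild type replicate 3 was from the null arrays. The level fell by 0.67 (SE 0.20, adjusted p = 0.0451), or 1.59-fold. A second probe set (1435980_x_at), of a kind that can share probes with other transcripts, had 285.2, 240.9 and 239.2 against 645.6 and 393.7, a fall of 1.02 (SE 0.23, adjusted p = 0.0160). Both calls depended on single arrays. Without wild type replicate 2 they stood at -0.37 (adjusted p = 0.302) and -0.69 (adjusted p = 0.152). Without null replicate 2 they had adjusted p = 0.112 and 0.0510, and without null replicate 3, 0.124 and 0.0505. Without a variance trend they had adjusted p = 0.142 and 0.0522, and an added constant of 64 ended the call of the brightest (adjusted p = 0.0517). The direction was the same in every alternative tried.

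Wnt4, the ligand of female somatic fate, varied as much within as between groups. Its brightest probe set (1450782_at) had 1797.2, 1266.9 and 1243.2 on null arrays, against 1535 and 901.9 in wild type. The lower wild type array lay below all null arrays and the higher one lay among them. The difference was 0.32 (SE 0.24, adjusted p = 0.410, 95% interval -0.23 to 0.87), and at the other probe set (1441687_at) 0.25 (95% interval -0.45 to 0.96). At both probe sets wild type replicate 2 was brighter than replicate 3, and without replicate 3 the differences were -0.04 and -0.31.

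Wnt9a, a further ligand, had slightly higher null signals that did not pass. The brightest probe set (1436978_at) had 449.7, 342.9 and 395.9 on null arrays, against 250.8 and 270.5 in wild type. The groups did not overlap. The difference was 0.48 (SE 0.19, adjusted p = 0.120, 95% interval 0.04 to 0.92), and none of its 14 alternatives passed. The dim probe set (1425889_at) ran from 19.4 to 46.1 with overlap. In RefSeq's gene order Wnt9a lies beside Wnt3a on chromosome 11, and Wnt6 beside Wnt10a on chromosome 1. Neither neighbour passed: Wnt3a had -0.04 and Wnt10a -0.60, both from dim probe sets.

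**Figure D3:**
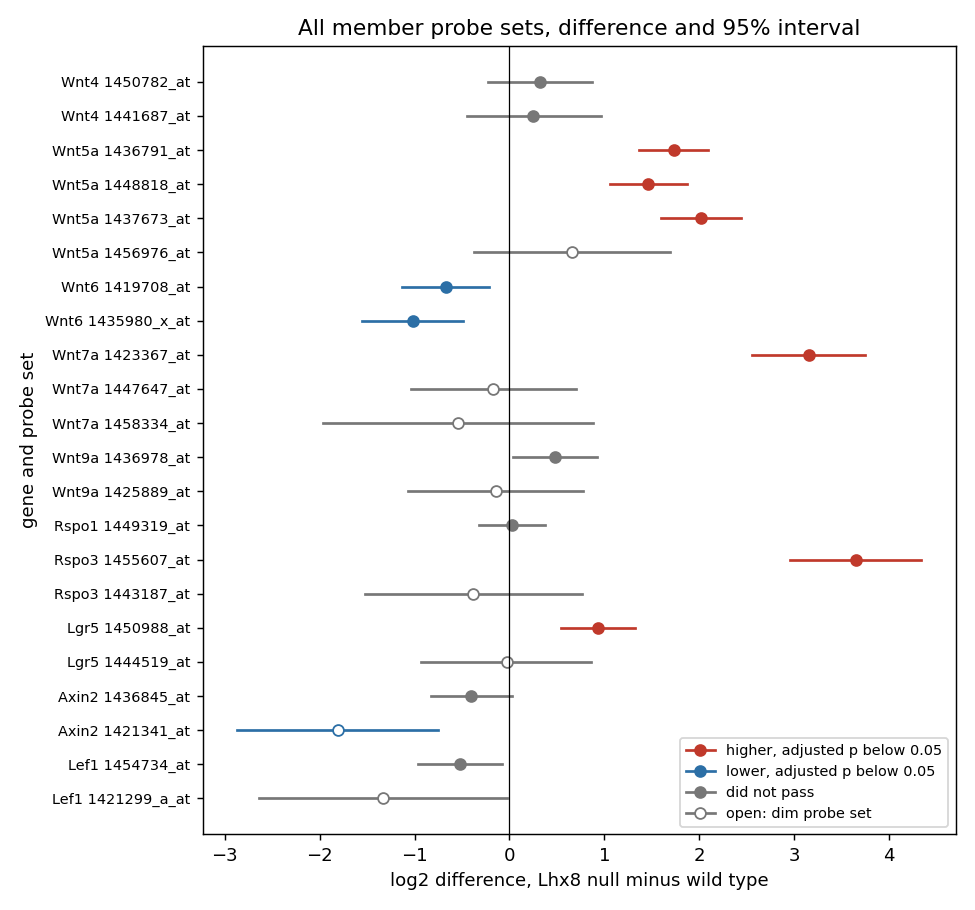
Log2 difference, Lhx8 null minus wild type, of all 22 member probe sets with the 95% interval of the limma fit; red was called higher, blue lower, grey did not pass, and open circles mark dim probe sets. The brightest probe sets of Rspo3 and Wnt7a lie at 3.65 and 3.16, and all 4 probe sets of Axin2 and Lef1 lie below 0.

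Of the 2 members read here as pathway output, Axin2 and Lef1, neither was called higher at any probe set. They do not stand for all genes that WNT signals can induce. Lgr5, taken here as a receptor gene, was called higher at its bright probe set. Outside the members Nkd1, Nkd2 and the inhibitor genes Notum and Apcdd1 were called higher. Of 6 reported target genes 3 were higher and 1 lower. Axin2, the feedback scaffold, had 768.2, 608.1 and 690.4 at its brighter probe set (1436845_at) on null arrays, against 1120.9 and 760.1 in wild type. Null replicate 1 and wild type replicate 3 overlapped. The difference was -0.40 (SE 0.19, adjusted p = 0.182, 95% interval -0.83 to 0.03). The dimmer probe set (1421341_at) had 122.1, 28.3 and 58.7 against 252.7 and 188.1, with all null arrays below the wild type arrays. It fell by 1.81 (SE 0.46, adjusted p = 0.0267), a call that held without null replicate 1 and was lost when any other array was left out. Wild type replicate 2 left out gave -1.63 (adjusted p = 0.189), and replicate 3 gave -1.97 (adjusted p = 0.130). Without null replicates 2 and 3 in turn it had -1.43 (adjusted p = 0.0526) and -1.83 (adjusted p = 0.0641), and without a variance trend adjusted p = 0.0608.

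Lef1, the nuclear partner of beta-catenin, had lower null signals at both probe sets and passed at neither. The brighter (1454734_at) had 273.8, 246.2 and 238.7 on null arrays against 355.8 and 332.8 on wild type arrays. The groups were narrow and did not overlap. The difference was -0.52 (SE 0.19, adjusted p = 0.0917, 95% interval -0.96 to -0.08). The dimmer (1421299_a_at) had -1.33 (SE 0.57, adjusted p = 0.141), with signals of 12.7 to 89 on null arrays, against 91.2 and 151.5 in wild type. Centred on array medians, the brighter probe sets of Axin2 (-0.67, adjusted p = 0.0372) and Lef1 (-0.67, adjusted p = 0.0419) both passed, against a median of -0.13 over all probe sets. Lef1 also passed with 1 probe set per gene and dim genes left out (-0.52, adjusted p = 0.0372). The lower values of Axin2 and Lef1 stand beside lower summed signals of germ cell and pregranulosa markers, whose part was not tested. The promoter windows at the first starts of both genes lacked the TCF and LEF letters, and that of a later Lef1 start held them. Such letters occurred in only 14.8% of all windows, and binding was not tested.

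Beyond the members, 79 of 81 other pathway genes were measured, each by its brightest probe set. The list was chosen by role with earlier results of these data known. Of these 24 were higher, 6 were lower and 49 did not pass, with a median of 0.32. Some genes counted as not passing were called higher at another probe set, among them Gsk3b, Csnk1a1, Bcl9, Sostdc1, Dkk3 and Fzd3. The calls of Sostdc1 and Fzd3 came from dim probe sets. Fzd3 had 0.32 at its brightest probe set, and others that were not dim (1450135_at, 1449730_s_at) had -0.54 and -0.45 and did not pass. Over all genes, dim ones included, 14.0% were higher and 13.6% lower, with a median of -0.02. In the fit with dim genes left out, 2784 of 10916 genes were higher and 2432 lower, beside 25 and 7 of 54 pathway genes. The counts by role below stand beside these shares. With arrays centred on their medians 23 pathway genes were higher and 8 lower. Without wild type replicate 2 or 3 the higher genes numbered 21 and 19, and the lower 4 each time.

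Rspo2, an R-spondin gene outside the members that oocytes are known to express, had 128.5, 251.4 and 237.9 on null arrays, against 1417.4 and 1639.8 in wild type (1455893_at). All null arrays were far lower. Rspo2 fell by 2.88 (SE 0.32, adjusted p = 0.000703), or 7.37-fold. On another scale, the summed deposited signal of germ cell markers fell by 6.09 times, and the part of germ cells in the fall of Rspo2 was not tested. A dim second probe set of Rspo2 (1430104_at) did not pass and had the opposite sign, at 0.99. The receptor gene Lgr4 fell by 1.11 (SE 0.22, adjusted p = 0.00924) and did not pass with wild type replicate 2 left out (adjusted p = 0.0971) or replicate 3 left out (adjusted p = 0.0650), or without a variance trend (adjusted p = 0.0647). The other 4 genes of this list, among them the receptor-removing ligase genes Znrf3 (0.12) and Rnf43 (-0.18), did not pass.

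Of 14 further ligand genes 3 were higher and none lower, and 11 of the 14 were dim. Wnt11 rose by 1.57 (SE 0.18, adjusted p = 0.000742), from 191.4 and 195.2 to 582.1, 717 and 668.3. Wnt2 rose by 1.98 (adjusted p = 0.00306) and Wnt16 by 2.01 (adjusted p = 0.00929), both dim on average. Their size depends on the added constant, with 2.35 for 1 and 1.36 for 64 at Wnt2 and 3.04 and 1.05 at Wnt16. Wnt16 did not pass with wild type replicate 2 left out (adjusted p = 0.0602) or replicate 3 left out (adjusted p = 0.0789). Porcn, which lipid-modifies WNT proteins, rose by 1.04 (adjusted p = 0.0418) and lost the call with any single array left out or with the replicate block (1.05, adjusted p = 0.0591). Wls, their carrier to the cell surface, had 0.43 and did not pass.

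Receptor genes were called higher in 7 of 15 cases and lower in 1, which was Fzd5 at -1.65 (adjusted p = 0.00150). Fzd2 rose by 1.92 (SE 0.19, adjusted p = 0.000386), with 2687.1, 2021.3 and 1800.1 on null arrays against 611.7 and 513.2. Fzd1 rose by 1.58 (adjusted p = 0.00107). Ror1, a receptor for WNT5A, rose by 1.05 (adjusted p = 0.00115) at its brightest probe set, while its dim ones had -0.46 and -1.10 and did not pass. Lrp6, the co-receptor gene of the beta-catenin branch, had 0.13 and did not pass.

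Inhibitor genes held the largest rises of the pathway list. Of 14 measured, 5 were higher and 1, Kremen1 at -0.67 (adjusted p = 0.0476), was lower. The Kremen1 call was lost with any array other than null replicate 3 left out (adjusted p = 0.0531 to 0.226), with the replicate block (-0.54, adjusted p = 0.0652), without a variance trend (adjusted p = 0.107) and with an added constant of 64 (adjusted p = 0.0513). Apcdd1, a membrane-bound WNT inhibitor, had 5458, 11667.1 and 11518 on null arrays, against 789.1 and 857.8 in wild type, a rise of 3.41 (SE 0.27, adjusted p = 0.000152). Its null replicate 1 had less than the other null arrays and still lay far above both wild type arrays. Sfrp2, a secreted decoy for WNT ligands, rose by 2.82 (SE 0.13, adjusted p = 3.59e-05) and Notum, an enzyme that removes the lipid of WNT proteins, by 2.60 (SE 0.19, adjusted p = 0.000115). Notum signals were 700.8, 760.5 and 716.1 against 105.4 and 85.3.

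Inside the cell 2 of 12 cytoplasmic genes were higher and none lower. These were Nkd2 at 2.07 (SE 0.16, adjusted p = 0.000142) and Nkd1 at 1.40 (SE 0.28, adjusted p = 0.00918), both inhibitors of Dishevelled that WNT signals can induce. Nkd1's other probe sets gave 0.51 to 0.67, and it did not pass with wild type replicate 2 left out (adjusted p = 0.0648) or replicate 3 left out (adjusted p = 0.104), or without a variance trend (adjusted p = 0.0577). Ctnnb1, the beta-catenin gene, had 0.11 with a 95% interval from -0.13 to 0.35. Gsk3b had -0.13 at its brightest probe set and did not pass, but 3 others that were not dim were called higher, at 0.88, 1.62 and 1.91. Its remaining probe sets had -0.02 and 0.62 and did not pass. Csnk1a1 likewise did not pass at its brightest (-0.26) and was called higher at another (0.78). Of 10 nuclear genes 3 were higher and 1 lower. The TCF genes Tcf7l1 and Tcf7l2 rose by 1.66 (SE 0.19, adjusted p = 0.000824) and 1.53 (SE 0.19, adjusted p = 0.00120), though a second probe set of Tcf7l2 that was not dim (1429427_s_at) had 0.14. Tle4, a corepressor that binds TCF factors, fell by 2.13 (SE 0.17, adjusted p = 0.000149).

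Genes reported elsewhere as WNT targets moved both ways. Of 6, Twist1 (1.63, adjusted p = 0.00188), Myc (1.15, adjusted p = 0.00289) and Ccnd1 (1.06, adjusted p = 0.00323) rose. Fst, the follistatin gene that depends on Wnt4 in the fetal ovary, fell by 1.17 (SE 0.13, adjusted p = 0.000727), from 2409.9 and 2500.8 to 1008.4, 949.8 and 1176.8. Its null arrays lay together well below the wild type arrays. Signals of Wnt4 overlapped between the groups, and a part of Wnt4 in the fall of Fst was not tested. Sp5, whose promoter window held both matches, had 0.22 (SE 0.30, adjusted p = 0.678). These targets answer to other signals too, and each cell type's share in them was not tested.

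**Figure D4:**
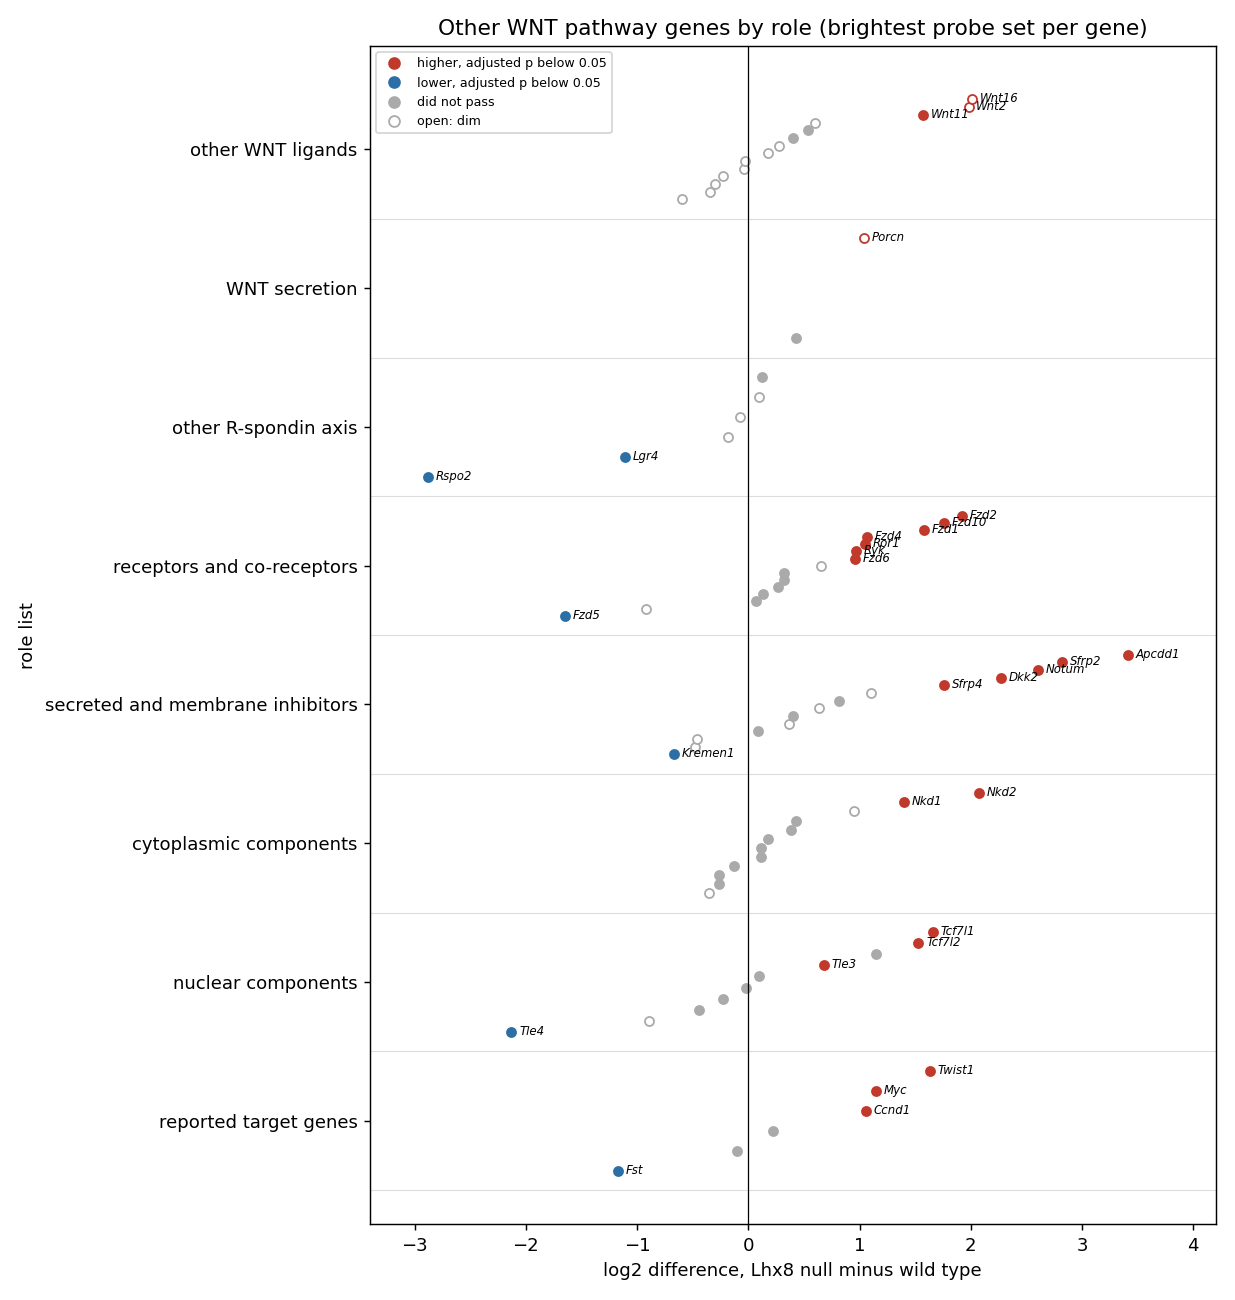
Log2 difference, Lhx8 null minus wild type, of 79 other pathway genes by role, 1 point per gene at its brightest probe set; red was called higher, blue lower, grey did not pass, and open points are dim. Rspo2 lies lowest at -2.88 and Apcdd1 highest at 3.41.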

How the data were processed

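The samples were 5 arrays of pooled newborn ovary RNA, 3 Lhx8 null and 2 wild type, grouped by their titles. The authors deposited 1 linear intensity per probe set and array, from biotin-labelled target per the labels' protocols, already scaled to a common trimmed mean. GCOS is named for the wild type arrays per the submitters' processing notes. The sources used here name no software for the null arrays and no detection calls. They give no batches for the null arrays, so array handling that differed between the groups cannot be told apart from genotype. Wild type replicate 1 was not among the samples given. The array-to-gene table gave 34945 probe sets 1 symbol, 932 several and 9160 none, and 64 controls were left out.

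Intensities were put on log2(signal + 16), quantile normalised and fitted with limma 3.58.1 in R 4.3.3 (lmFit, then eBayes with a variance trend, two-sided, no brightness filter). P-values were adjusted over 45037 probe sets, and all adjusted p-values and standard errors (SE) come from this fit unless an alternative is named. Samples are separate pools, so p-values measure the spread between pools, and 2 wild type pools give a poor estimate of it. On simulated arrays (45037 probe sets, 50 changed per size, independent noise) the fit called 0% of changes of 0.5, 12% of 1, 26% of 2 and 80% of 4 log2 units, with 0% of calls false, so small changes can be missed. In the real data 21.0% of probe sets passed, so these shares need not hold there.

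The members and lists were chosen with earlier results of these data known. Named genes were all members, Lhx8, and up to 3 passing genes of smallest p per role list. Cell type marker lists are given with all their genes counted. Fzd5, Kremen1, Lrp6, Ctnnb1, Wls, Znrf3, Rnf43, Ccnd1, Sp5, Wnt3a and Wnt10a were named after their values were seen. So were Gsk3b, Csnk1a1, Bcl9, Sostdc1, Dkk3 and Fzd3. Alternatives changed the scaling, the added constant, the filter, the threshold, the variance trend, a block for the replicate number, and left out each array. Leaving out a wild type array leaves 1, which is assumed to vary like the null arrays. Figures used matplotlib 3.10.9 in Python 3.11.15. The number of arrays limits all precision. A fold is 2 to the power of the log2 difference on this scale, which understates changes of dim genes.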

Additional observations from a re-analysis of the deposited data

How the results depend on the processing

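The count of higher member probe sets stayed at 6 under the alternatives that kept all arrays and all probe sets, and was 4 of 10 with 1 probe set per gene and dim genes left out. It was 5 to 6 with each array left out. The count of lower ones was less stable, at 5 with arrays centred on their medians, 0 without a variance trend, 0 at a threshold of 0.01 and 0 to 4 with each array left out. In limma 4 lower probe sets without a trend and 5 in the fit behind the threshold of 0.01 had an unadjusted p under 0.05, and Wnt6 and Axin2 kept their direction there. Higher pathway genes numbered 19 to 27 and lower ones 4 to 6 with each array left out.

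Over all probe sets, 2784 were higher and 2432 lower with 1 probe set per gene and dim genes left out, where only 10916 genes were tested. Without a variance trend 2951 were higher and 3108 lower, and at a threshold of 0.01 2374 were higher and 2375 lower. With each array left out 2133 to 5094 were higher and 1802 to 4934 lower, fewest without wild type replicate 3. Apart from the construction of an alternative the cause was not tested.

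Values that changed sign all belonged to probe sets that did not pass in either fit. With the deposited scaling these were 0.06 for Wnt7a (1447647_at), 0.09 for Wnt9a (1425889_at), -0.03 for Rspo1 and 0.21 for Lgr5 (1444519_at), and with centring on medians -0.28 for Rspo1 and 0.00 for Wnt4 (1441687_at). The replicate numbers 2 and 3 occur in both groups, and deviations of same-numbered arrays from their group means correlated at 0.0083 and 0.0078. With only 2 wild type arrays their deviations mirror each other, so these are not separate checks and can decide little. The arrays share a number, and a pairing is neither shown nor excluded. With the replicate block 5153 probe sets were higher and 4700 lower, member counts were 6 higher and 3 lower, and the pathway counts were 26 and 6. Under that block Wnt7a (1447647_at) stood at 0.07, Rspo1 at -0.02 and Rspo3 (1443187_at) at 0.05. Over the arrays left out in turn the ranges were -0.41 to 0.07 for that probe set of Wnt7a, -0.53 to 0.24 for Wnt9a (1425889_at), -0.16 to 0.22 for Rspo1, -0.23 to 0.08 for Lgr5 (1444519_at), -0.75 to 0.05 for Rspo3 (1443187_at), and -0.04 to 0.68 and -0.31 to 0.82 for the brighter and dimmer Wnt4 probe sets. Dim probe sets lie near the array's background, where signal limits what can be seen.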
